A study of Anolis chlorocyanus and Anolis cybotes and Anolis osa with 24 samples.

Results

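Leg muscle of Anolis sagrei was set against leg muscle of 3 other anole species, with 3 sagrei libraries and 9 libraries of Anolis chlorocyanus, Anolis cybotes and Anolis osa (3 each). These 12 leg libraries are all the leg columns among the 24 RNA sequencing libraries of the series, and they were chosen by the species and muscle in their labels. All animals were male and the RNA came from whole muscle. The other 12 libraries are jaw muscle of the same species under the same title numbers (15, 16 and 17 in sagrei), and they are used below only to ask whether a leg difference is also seen in jaw. The labels name neither the leg muscle nor the age of the animals, nor do they state that each number stands for a separate animal. The p-values therefore describe variation among these libraries, which may be technical in part.

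Anoles are insular and mainland lizards that differ in where they perch and in how they run, jump and climb, and the leg muscles power those movements. Anolis sagrei, the brown anole, and Anolis cybotes are trunk-ground species that forage low and run on broad surfaces. Anolis chlorocyanus is a green trunk-crown species of Hispaniola, and Anolis osa lives on the Central American mainland. Sagrei and osa belong to the Norops clade of anoles. Skeletal muscle devotes much of its messenger RNA to a small number of contractile, calcium-handling and energy-supplying proteins, and the proportions of these set how fast a muscle contracts and how long it resists fatigue. The deposited table pairs its Ensembl-style identifiers with no gene symbols, so genes are described here by identifier, level and rank and not by function, and the labelled tissue was not checked against named muscle markers. The prefix of the identifiers is that of the green anole Anolis carolinensis, which is none of the 4 species. Reads of every species were counted on those identifiers, so a sequence difference that alters mapping and a difference in expression cannot be told apart. In whole muscle, fewer cells of a type and less RNA per cell cannot be told apart either.

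The sagrei leg libraries resembled the others in depth. They held 1588060 ± 78144 counts (SD, n = 3), against 1607250 ± 163615 in the other leg libraries (n = 9; exact permutation p = 0.868, two-sided, 220 assignments). Genes with at least 1 count numbered 12293 ± 336 in sagrei and 12448 ± 310 in the others (exact permutation p = 0.473). The top 10 genes by count made up 27.3% ± 1.55 of a sagrei library and 28.4% ± 3.97 of another species' library. Levels are given as CPM, which scales each library to a common total by TMM. For a gene with 0 counts in all sagrei leg libraries the floor was 3 counts over the group, not per library. The cybotes 08 leg library stood apart, with 2.32% of its counts in 8 jaw-restricted genes, which are defined below. Those genes took 0.0160% to 0.0335% in sagrei leg and 0.00382% to 0.558% in the remaining leg libraries. The upper values of that range were 0.330% in cybotes 01, 0.505% in cybotes 03 and 0.558% in osa 07. The chlorocyanus 08 leg library had the highest scaling factor, 1.24. Counts of called genes are given below without the cybotes 08 and chlorocyanus 08 leg libraries as well.

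Sagrei leg muscle differed from the mean of the other species in 762 genes, more of them higher than lower. These 762 of 8568 genes tested had a Benjamini-Hochberg adjusted p under 0.05 in edgeR's quasi-likelihood test, which is 8.89%. Of these, 477 were higher in sagrei (5.57% of the genes tested) and 285 were lower (3.33%). The contrast was the sagrei mean minus the mean of the 3 other species means, on the log2 scale. At least 2-fold differences made up 664 of the calls (7.75% of the genes tested), 408 higher and 256 lower. Among the calls, 116 higher and 90 lower genes differed at least 4-fold, and 15 higher and 13 lower genes at least 16-fold. Over all 8568 genes tested, called or not, 291 differed at least 4-fold and 33 at least 16-fold. These are fitted values, which are no measured size where a species has no counts. The median log2 fold change was 1.48 over the genes called higher and -1.65 over those called lower, beside 0.03 over all genes tested. The smallest change that was called was 0.64 on the log2 scale. Higher calls also outnumbered lower ones in each other species set against the mean of its 3 counterparts. The shares were 12.2% higher and 7.63% lower in chlorocyanus, 7.11% and 5.24% in cybotes, and 6.69% and 4.67% in osa. The excess was therefore not particular to sagrei. For sagrei it was slight against cybotes alone (4.98% higher, 4.63% lower) and reversed against osa (3.61%, 3.77%) and chlorocyanus (7.34%, 8.32%).

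**Figure D1:**
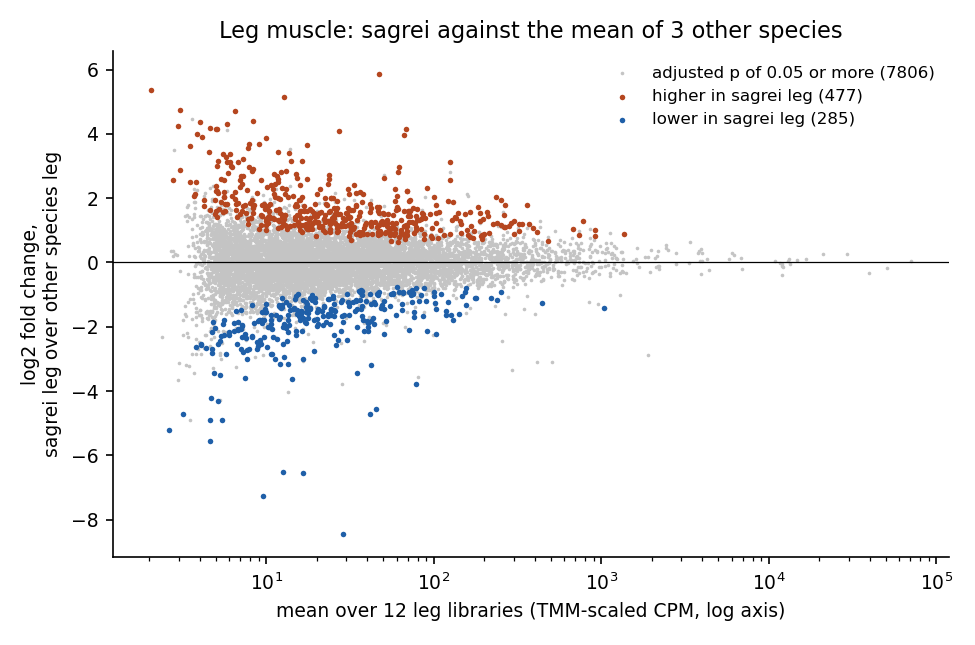
Each point is 1 of the 8568 genes tested, with its mean level over the 12 leg libraries on the horizontal axis (TMM-scaled CPM, log axis) and the log2 fold change of sagrei leg over the mean of the other species on the vertical axis. The 477 genes called higher and the 285 called lower lie mostly below 100 CPM, as do most of the genes tested. No call falls among the 50 most abundant genes.

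The number of calls rested on how the spread was measured. The fit compares sagrei with the other species against the spread between libraries of 1 species. With the 9 other libraries taken as 1 group, so that differences among those species count as spread, 76 genes passed (55 higher, 21 lower), all of them among the 762. Leaving out 1 sagrei library gave 453 calls without number 15, 352 without number 16 and 384 without number 17. Of these, 379, 308 and 336 were among the 762. The filter was applied anew in these fits, with 9101, 9079 and 9021 genes tested. Without both the chlorocyanus 08 and the cybotes 08 leg library the count was 933 of 8847 genes tested (589 higher, 344 lower). Of these, 688 were among the 762.

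The called genes were a modest part of the leg transcriptome by mass. The 477 genes higher in sagrei held 4.59%, 5.06% and 5.08% of the counts of the sagrei leg libraries, against 1.56% to 2.86% in the 9 others. Their mean share was thus 4.91% ± 0.277 in sagrei (SD, n = 3) and 2.27% ± 0.411 in the others (n = 9). The 285 genes lower in sagrei held 0.426%, 0.461% and 0.480% of the sagrei counts, against 1.17% to 1.57% in the others. These libraries served to choose both sets, so the shares are a description without a test. Among the other species the mean share of the higher set ran from 2.0% in chlorocyanus over 2.21% in cybotes to 2.61% in osa, while the lower set held 1.37% in chlorocyanus, 1.32% in cybotes and 1.23% in osa.

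**Figure D2:**
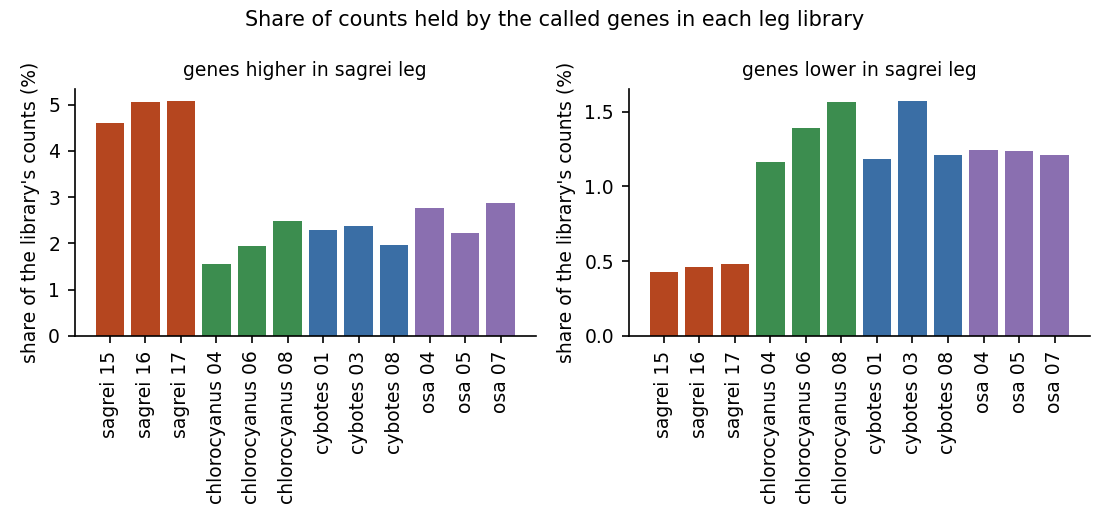
Bars give the percentage of each leg library's counts held by the 477 genes called higher (left) and the 285 called lower (right) in sagrei leg, with 1 bar per library and the sagrei libraries at the left. The sagrei bars stand at 4.59% to 5.08% in the left panel and at 0.426% to 0.480% in the right, outside the range of the 9 other libraries on which the sets were chosen.

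Calls were few among the most abundant genes of leg muscle. None of the 50 with the highest mean was called, and 2 of the top 100 were, against 8.89% of all genes. The most abundant gene averaged 72333 ± 15684 CPM in sagrei (SD, n = 3) and 70478 ± 15447 CPM in the others (n = 9); the log2 fold change was 0.04 ± 0.30 (SE; adjusted p = 0.952 in edgeR). The second averaged 46205 ± 6915 CPM in sagrei and 52535 ± 18453 CPM in the others, with a log2 fold change of -0.16 ± 0.35 (SE; adjusted p = 0.818 in edgeR). Among the 20 most abundant genes the estimated log2 fold changes stayed within 0.39 of 0, with standard errors of 0.29 to 0.71. Among the top 50 the estimates reached 2.87 in size, so an uncalled gene of that class could still have a large estimate. The share of genes called was 9.05% under 5 CPM, 8.82% from 5 to 20 CPM, 9.69% from 20 to 100 CPM, 7.38% in the next class and 2.20% in the highest. Genes called higher outnumbered those called lower in each class but the highest, with 65 higher and 22 lower in the class that starts at 100 CPM.

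Libraries of sagrei were separated completely from those of the other species in 487 of the 8568 genes (5.68%), 277 higher (3.23%) and 210 lower (2.45%), and 356 of these were called. In 205 genes called higher the lowest sagrei library lay above the highest of the 9 others, and in 151 genes called lower the highest sagrei library lay below the lowest of the others. In the remaining 406 called genes at least 1 library of another species fell within or beyond the sagrei range. Gaps between the sagrei libraries and the nearest other library were measured on log2 CPM with a prior count of 2. Of the 8568 genes tested, a gap of at least 2-fold was present in 19 higher and 8 lower, all of them called. The mean of sagrei lay outside the means of all 3 other species in 716 of the 762 called genes, and in 3834 of all 8568. For 477 called genes the sagrei mean lay farther from the average of the rest than any other species mean did, while that place went to chlorocyanus for 133, osa for 84 and cybotes for 68. Over all 8568 genes sagrei was the farthest in 1795 and chlorocyanus in 2676. Thus 285 of the calls were in genes where a species other than sagrei departed most.

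By the rule for named genes, which required complete separation and at least 10 CPM in the higher group, the gene ranked first upward by fitted fold was ENSACAG00000004668. It stood at 157, 255 and 108 CPM in sagrei leg libraries 15, 16 and 17. In chlorocyanus leg it had 0, 0 and 0.831 CPM, in cybotes leg 10.1, 17.5 and 2.94 CPM and in osa leg 1.23, 2.69 and 12.1 CPM. All 3 sagrei libraries were thus far above the other 9, and chlorocyanus was nearly without counts. Mean levels were 173 ± 74.6 CPM in sagrei (SD, n = 3) and 5.27 ± 6.35 CPM in the others (n = 9), and pooled counts over scaled totals differed 31.2-fold (exact 95% interval 24.8 to 39.8, counting error only). The fit gave a log2 fold change of 5.87 ± 0.51 (SE; adjusted p = 3.55e-05 in edgeR). This value averages 8.59 against chlorocyanus, 4.03 against cybotes and 4.98 against osa, and the chlorocyanus value rests on very few counts. With the 9 other libraries as 1 group the log2 fold change was 4.997 (adjusted p = 0.00593 in edgeR). The edgeR test also passed against each single species, in contrasts that share the sagrei libraries.

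The gene ranked second by fitted fold was ENSACAG00000010362, with 11.04, 23.3 and 90.6 CPM in sagrei leg. The chlorocyanus leg libraries held 4.93, 5.56 and 8.31 CPM, those of cybotes 3.89, 3.49 and 2.21 CPM, and all 3 of osa had 0 counts. The sagrei libraries lay above the rest, but the lowest of them came close to chlorocyanus and the mean, 41.6 ± 42.8 CPM against 3.16 ± 2.89 CPM in the others, rested largely on library 17. Pooled counts over scaled totals differed 13.3-fold (exact 95% interval 9.72 to 18.5, counting error only, without the spread between libraries). The fitted log2 fold change, 5.15 (adjusted p = 0.000589 in edgeR), averages 2.69 against chlorocyanus, 3.68 against cybotes and 9.08 against osa, and the osa value is set by the fit because osa had no counts. With the 9 other libraries as 1 group it was 3.66 (adjusted p = 0.0368 in edgeR). Its second place thus rests on the osa zeros, since the pooled ratios of the genes ranked 3, 4, 6, 7, 8 and 9 were higher, at 13.6 to 19.6. Without sagrei library 17 the fitted log2 fold change fell to 3.88 and the call held, with an edgeR adjusted p of 0.00312.

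The genes ranked first and second downward by fitted fold had no count in sagrei leg. ENSACAG00000016469 had 0 counts in all 3 sagrei leg libraries. It stood at 9.86, 13.6 and 1.25 CPM in chlorocyanus leg, at 34.2, 35.4 and 41.2 CPM in cybotes leg and at 96.3, 70.0 and 40.0 CPM in osa leg. The 9 other libraries together held 535 counts of this gene. With 3 counts over the sagrei group as the floor, the level in sagrei leg came out 57.0-fold lower than the pooled level of the others. In those it averaged 38.0 ± 29.98 CPM (SD, n = 9; edgeR adjusted p = 0.00106). The figure pools the 9 libraries, of which chlorocyanus 08 held only 3 counts, as many as the floor. By the exact 95% interval, which is wider, the ratio of sagrei to the others could be as high as 0.0217. The highest levels were thus those of osa and the lowest outside sagrei those of chlorocyanus.

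ENSACAG00000002633 likewise had 0 counts in the 3 sagrei leg libraries. Chlorocyanus leg held 19.7, 15.5 and 23.3 CPM, cybotes leg 5.45, 9.98 and 8.09 CPM and osa leg 9.81, 6.05 and 16.4 CPM. With the same floor its level in sagrei leg came out 20.8-fold lower than the pooled level of the others. They averaged 12.7 ± 6.29 CPM (n = 9; edgeR adjusted p = 0.000589), and the exact 95% interval of the ratio, again wider, ended at 0.0598. The order of these genes, first place included, is not established. By the floor the third was 22.4-fold lower, and for a gene without counts such a figure sets no upper limit to the difference. Those ranked 4 and 5 had pooled ratios of 0.0292 and 0.0342. Their exact 95% intervals started at 0.0117 and 0.0156 and overlapped that of the first, which ended at 0.0217. Both genes were also low in sagrei jaw, where the 3 libraries together held 2 counts of ENSACAG00000016469 and 1 count of ENSACAG00000002633.

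**Figure D3:**
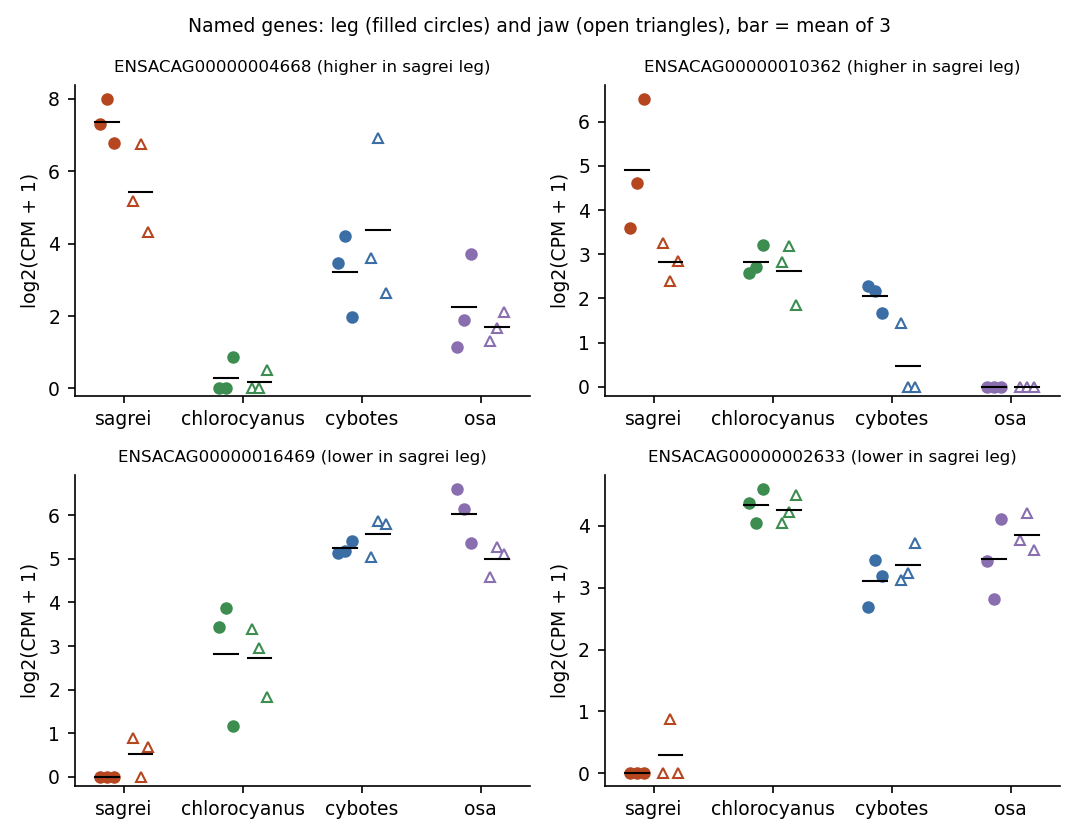
Points are single libraries of the 4 named genes on a log2(CPM + 1) axis, with leg as filled circles (scaled over the 12 leg libraries), jaw as open triangles (scaled over all 24) and bars at the mean of 3 on that axis. In the upper panels the sagrei leg points lie above every other leg point, and in the lower panels they lie at 0 while each other leg library has counts. The rule that chose these genes required the separation in leg.

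The next genes in rank showed the same kinds of pattern, with a complete separation that the rule required of them. Over the 12 genes ranked highest upward by fitted fold, mean levels in sagrei leg ran from 10.4 to 173 CPM and those of the other 9 libraries from 0.563 to 30.8 CPM. The ninth stood at 108, 53.7 and 114 CPM in sagrei and at 1.23 to 10.1 CPM in the others, so that no other library came near. The tenth, at 141, 244 and 129 CPM in sagrei, had 0 to 0.831 CPM in chlorocyanus but 19.1 to 71.0 CPM in cybotes and osa, so the separation was widest from chlorocyanus. Over the 12 genes ranked highest downward, sagrei leg averaged 0 to 5.23 CPM and the others 10.1 to 102 CPM. The fifth of these had 2.21, 1.94 and 1.69 CPM in sagrei, against a lowest, median and highest of 10.8, 68.8 and 107 CPM in the others. The third also had 0 counts in sagrei leg, but its level in the others ran from 0.673 to 103 CPM and its edgeR adjusted p was 0.0408. With the 9 other libraries as 1 group, 9 of the 12 upward and 5 of the 12 downward genes passed, all 4 named genes among them.

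The completely separated genes also included abundant ones. The most abundant of those called higher stood at 1613, 1346 and 1204 CPM in sagrei leg, against a lowest, median and highest of 323, 648 and 749 CPM in the others, with a log2 fold change of 1.3 ± 0.25 (SE; adjusted p = 0.00607 in edgeR). The most abundant of those called lower stood at 516, 380 and 484 CPM in sagrei leg, against 521, 1373 and 1609 CPM, with a log2 fold change of -1.40 ± 0.32 (SE; adjusted p = 0.0152 in edgeR). The sagrei values just cleared the lowest other library, chlorocyanus 08, while the remaining 8 lay between 967 and 1609 CPM. The next 4 genes by abundance in each direction differed less than 4-fold, with log2 fold changes of 0.67 to 1.79 upward and -0.92 to -1.15 downward. With the 9 other libraries as 1 group, 2 of these 5 higher genes and 0 of the 5 lower genes were called by edgeR, and the most abundant lower gene had an adjusted p of 0.0531.

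Genes absent from sagrei leg and present in all other leg libraries were few. Of all identifiers in the table, 16 had 0 counts in the 3 sagrei leg libraries and at least 1 count in each of the 9 others, and 3 of these had at least 3 counts in each other library. The 3 genes had 2, 1 and 4 counts in sagrei jaw, so none of the 3 was without counts in both muscles of sagrei. Of the 16 identifiers, 8 also had 0 counts in the sagrei jaw libraries. Identifiers absent from leg in the same way as the 16 numbered 39 in chlorocyanus, 13 in cybotes and 19 in osa. In the opposite direction, 20 of the 25920 identifiers had at least 1 count in each sagrei leg library and 0 in all 9 others. The same count was 31 in chlorocyanus, 26 in cybotes and 20 in osa, so such identifiers were not particular to sagrei. At least 3 counts in each library of the species were held by 4 of them in sagrei, beside 7 in chlorocyanus, 4 in cybotes and 3 in osa. The 4 identifiers of sagrei averaged 3.75 to 8.10 CPM in sagrei leg and did not pass the filter on low counts, so they were not tested. In jaw they had 15 to 30 counts over the sagrei libraries and 0 or 1 over the 9 others. Depth limits such counts, since 0 counts over the sagrei group allow a level up to the floor of 3 counts.

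Sagrei leg had its smallest mean distance to osa and its largest to chlorocyanus, with ranges that overlapped. The root-mean-square difference in log2 CPM over the 8568 genes averaged 1.07 between sagrei and osa libraries (9 pairs, 1.01 to 1.17). It averaged 1.12 between sagrei and cybotes (1.08 to 1.24) and 1.21 between sagrei and chlorocyanus (1.13 to 1.38). Cybotes and osa also had their largest mean distance to chlorocyanus, 1.245 each, so this was not particular to sagrei. The mean between osa and cybotes was 1.13. Within sagrei the distance was 0.798 to 0.830 over 3 pairs, beside means of 0.749 in osa, 0.799 in cybotes and 0.960 in chlorocyanus. In single contrasts by the same edgeR fit, sagrei differed from osa in 632 genes (7.38%), 309 higher (3.61%) and 323 lower (3.77%). It differed from cybotes in 824 genes (9.62%), 427 higher (4.98%) and 397 lower (4.63%). From chlorocyanus it differed in 1342 (15.7%), 629 higher (7.34%) and 713 lower (8.32%). The 3 contrasts share the sagrei libraries, and the differences between these counts were not tested. The count against osa was 299 without osa library 05, 335 without osa 04, and 408, 388 and 368 without sagrei 15, 16 and 17. Against cybotes it was 307 without cybotes 03, 422 without cybotes 08 and 547 without cybotes 01, and 531, 311 and 480 without sagrei 15, 16 and 17. The order of the counts therefore turned with the libraries: without sagrei 16 there were more calls against osa, 388, than against cybotes, 311, and without chlorocyanus 08, which leaves unequal groups, there were fewer against chlorocyanus, 1115, than against cybotes, 1183. Against chlorocyanus it was 795 without chlorocyanus 06 and 834 without sagrei 17. The split against osa depended on scaling, with 238 higher and 419 lower when library sizes left out the 20 most abundant genes.

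Each of the other species set against the mean of its own 3 counterparts gave more calls than sagrei. There were 1703 in chlorocyanus (19.9%; 12.2% higher, 7.63% lower), 1058 in cybotes (12.3%; 7.11% higher, 5.24% lower) and 973 in osa (11.4%; 6.69% higher, 4.67% lower). Whether these counts differ from the 762 of sagrei was not tested. In a principal component analysis of the 12 leg libraries, the component that set sagrei apart was PC3, with 16.2% of the variance. Sagrei libraries scored 40.2 to 46.5 on it and the others -42.0 to 9.22. On PC1 and PC2, which held 25.5% and 20.1%, the sagrei scores fell within the range of the others. Within sagrei the median SD of log2 CPM was 0.373 over called genes and 0.390 over all genes tested.

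Most of the leg difference was also seen in jaw muscle of the same title numbers. Of the 762 genes called in leg, 761 were measured in a fit of all 24 libraries, and 754 (99.1%) had the same sign in the jaw of sagrei against the jaw of the other species, compared with 79.6% of all 8540 genes measured in both. In jaw 500 of the 761 passed the edgeR test in the same direction, where 12.7% of genes were called in jaw (1156 of 9123; 7.25% higher, 5.43% lower), and none passed in the opposite direction. The genes called higher in leg had, in that fit, a median log2 fold change of 1.46 in leg and 1.26 in jaw. Those called lower had -1.67 in leg and -1.39 in jaw. They were selected on the leg values, and the jaw values had no part in that choice. Jaw and leg libraries of a number deviated together, however, so the agreement between muscles is no independent check. With both contrasts taken from the fit of 24 libraries, 1036 genes were called in leg (11.4%; 6.81% higher, 4.55% lower) and 630 were called in both muscles in 1 direction, which is 60.8% of the leg calls and 54.5% of the jaw calls. Across all 9123 genes the 2 sets of fold changes had a Pearson correlation of 0.771 and a Spearman correlation of 0.756, given as a description since the jaw and leg libraries of a number are paired and genes are not independent.

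**Figure D4:**
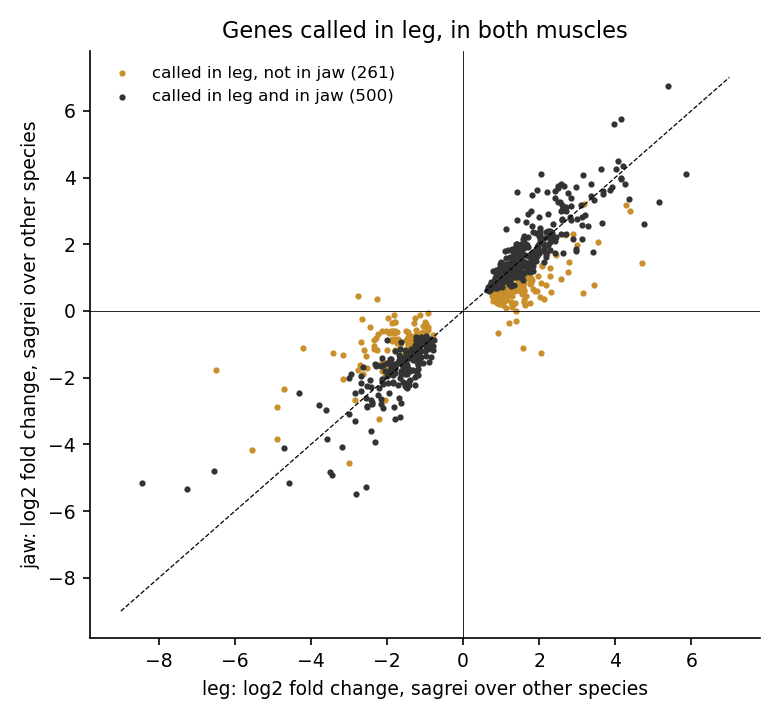
Each point is 1 of the 761 genes called in leg and measured in both muscles, with the log2 fold change of sagrei over the other species in leg (horizontal) and in jaw (vertical) and the dashed line marking equal values. The 500 genes called in both muscles and the 261 called in leg only by threshold lie mostly in the same pair of quadrants, and 7 points lie in the others.

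The named genes illustrate this. ENSACAG00000004668 stood at 35.2, 108 and 19.1 CPM in sagrei jaw, against 0 to 120 CPM in the jaw of the other species, where the cybotes 03 library alone reached 120 CPM. In jaw its log2 fold change was 4.10 ± 0.77 (SE; adjusted p = 0.00112 in edgeR). ENSACAG00000010362 had 8.59, 4.24 and 6.18 CPM in sagrei jaw, which overlapped the 2.59 to 8.15 CPM of chlorocyanus jaw, with 0 to 1.73 CPM in cybotes and 0 counts in osa (log2 fold change 3.27, edgeR adjusted p = 0.0127). ENSACAG00000016469 and ENSACAG00000002633 had at most 0.859 CPM in any sagrei jaw library, while the other jaw libraries held 2.59 to 57.7 CPM of ENSACAG00000016469 and 7.77 to 21.6 CPM of ENSACAG00000002633.

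Whether the sagrei difference itself differed between leg and jaw was tested as the leg difference minus the jaw difference. Without a term for the title number, the edgeR quasi-likelihood test called 0 of 9123 genes (0%), with 259 at an unadjusted p under 0.05. DESeq2 called 3 and limma voom 0. The jaw and leg libraries of a number deviated together from their group means, and a fit that blocked on the number called 27 genes (0.296%). In 10 (0.11%) the leg difference was above the jaw difference and in 17 (0.186%) it was below, and 801 had an unadjusted p under 0.05. The blocked count was 5 without both sagrei 16 libraries, 14 without both sagrei 17 libraries and 53 without both cybotes 01 libraries. Of these, 5, 9 and 27 were among the 27. None of the 4 named genes was among the 27. For ENSACAG00000010362 the difference could not be judged, since osa had 0 counts in both muscles.

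Among the 27 genes the sagrei difference from the other species had opposite signs in leg and jaw for 16. Whatever its sign, it was larger in size in jaw for 19 and larger in leg for 8. Of the 27, 16 were called in jaw, 4 in leg and 9 in neither muscle. The leg minus jaw difference of the 3 sagrei numbers lay outside that of all 9 other numbers in 20 genes, 10 above and 10 below. Of a pair of genes tied at the lowest adjusted p, one averaged 23.9 ± 10.9 CPM in sagrei leg (SD, n = 3), against 19.4 ± 1.27 in chlorocyanus, 7.22 ± 4.71 in cybotes and 5.65 ± 0.732 CPM in osa leg. In jaw it averaged 69.0 ± 42.4 CPM in sagrei, against 11.4 ± 2.79 in chlorocyanus, 6.34 ± 4.02 in cybotes and 2.58 ± 1.07 CPM in osa. Leg minus jaw was thus -1.05, -1.44 and -1.65 on the log2 scale in sagrei and between -0.17 and 1.23 in the other numbers (blocked difference -2.17 ± 0.30 SE, adjusted p = 0.00322 in edgeR). The other gene of the pair averaged 584 ± 188 CPM in sagrei leg, against 226 ± 158 in chlorocyanus, 1008 ± 422 in cybotes and 488 ± 46.9 CPM in osa leg. In jaw it averaged 155 ± 53.4 CPM in sagrei, against 1.85 ± 1.49 in chlorocyanus, 46.5 ± 12.0 in cybotes and 54.6 ± 41.8 CPM in osa. Its leg minus jaw values, 1.27 to 2.91 in sagrei and 2.44 to 6.99 in the others, overlapped (blocked difference -2.95 ± 0.41 SE, adjusted p = 0.00322 in edgeR).

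Genes with a leg value of sagrei that departed more than its jaw value included the fourth by adjusted p. It averaged 2.93 ± 2.10 CPM in sagrei leg (SD, n = 3), against 10.7 ± 9.03 in chlorocyanus, 30.6 ± 18.7 in cybotes and 29.6 ± 25.1 CPM in osa leg. In jaw it averaged 17.6 ± 2.52 CPM in sagrei, against 8.25 ± 5.74 in chlorocyanus, 34.6 ± 22.7 in cybotes and 7.99 ± 1.14 CPM in osa, so that the sagrei mean lay among the others. Leg minus jaw was -1.81, -3.25 and -1.85 on the log2 scale in sagrei and -0.36 to 2.57 in the others, with a blocked difference of -3.17 ± 0.50 (SE; adjusted p = 0.0103 in edgeR). In the opposite direction, the gene ranked 22 averaged 43.8 ± 18.7 CPM in sagrei leg, against 13.99 ± 1.01 in chlorocyanus, 21.1 ± 6.57 in cybotes and 16.5 ± 3.48 CPM in osa leg, while its jaw means were 17.4 ± 10.7 CPM in sagrei and 16.02 to 31.3 CPM in the others. Its leg minus jaw difference was 0.97 to 1.92 in the sagrei numbers and -0.89 to 0.42 in the others (blocked difference 1.64 ± 0.33 SE, adjusted p = 0.0339 in edgeR).

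**Figure D5:**
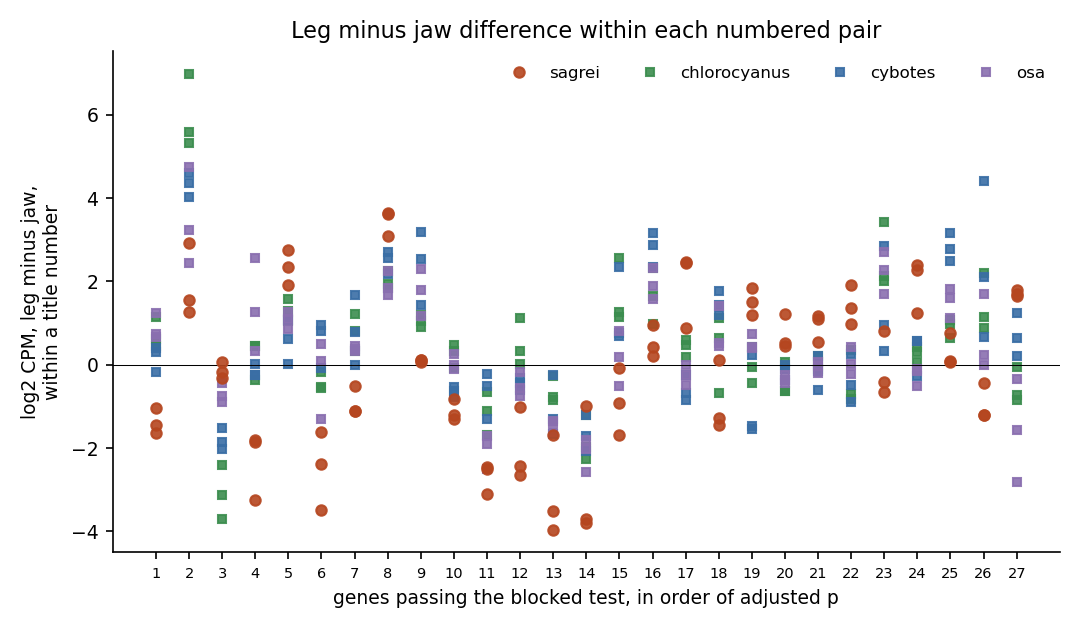
For each of the 27 genes that passed the blocked test, points give log2 CPM in leg minus log2 CPM in jaw within a title number, with 3 sagrei numbers as circles and 9 numbers of the other species as squares. In 20 genes the sagrei circles lie wholly above or below the squares, which the choice of these genes favours.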

How the data were processed

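Total RNA from whole jaw or leg muscle was sequenced in 24 libraries, per the labels. The authors deposited 1 table of raw counts for 25920 identifiers, with column names equal to the sample titles. STAR, which aligns spliced reads, is named in the submitters' processing notes. As to the genome build, counting program and strand, each is not given in the sources used here. Genes that share reads with near-identical copies therefore cannot be told apart from them.

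The 12 leg columns were fitted in edgeR 4.0.16 (R 4.3.3) as 4 species means with 8 residual degrees of freedom, after filterByExpr (8568 genes kept) and TMM scaling. Calls used the quasi-likelihood F-test at a Benjamini-Hochberg adjusted p under 0.05, and an SE was taken as |log2 fold change| over the root of F. CPM values are scaled by TMM library sizes, and log2 CPM used a prior count of 2. Leg was compared with jaw in a fit of 24 libraries as 8 means (9123 genes). Jaw-restricted genes were those called lower in leg than in jaw over all species, with a log2 fold change of -5 or below and at least 5 CPM on average in jaw. The title number was taken to pair jaw and leg, since all 12 pairs deviated together (correlations of 0.296 to 0.740). All 12 replicate pairs in leg differed beyond sampling noise (chi-square over its degrees of freedom 7.30 or more).

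The rule for named genes took called genes whose higher group averaged 10 CPM or more, with complete separation of sagrei from the other libraries, ranked by fitted fold change or abundance. Only 2 identifiers in each direction are printed, and the 27 gene lists prepared by symbol were not used here. The comparison, lists and rules were chosen with earlier results of these data known. DESeq2 1.42.0 and limma 3.58.1, other scalings and filters, a pooled reference and leaving out libraries served as alternatives. The fits were also run on simulated data, in which all groups shared the same mean per gene apart from changes set in sagrei leg. Differences among the other species were not simulated, and no recovery figure is given here. Intervals and floors cover counting error only.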

Additional observations from a re-analysis of the deposited data

Results flagged for a closer look

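The sagrei difference in leg departed from the sagrei difference in jaw in 27 genes when title numbers were blocked, by a test of that difference itself. They stand here because 1 contrast gave different effects in the 2 muscles. Without the block the edgeR quasi-likelihood test called 0, with 259 genes at an unadjusted p under 0.05. The cause was not tested.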

How the results depend on the processing

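The 762 calls stayed within 1.5 times under 3 other scalings, a stricter filter, DESeq2, limma voom, the fit of 24 libraries and, chosen after seeing the data, without the chlorocyanus 08 and cybotes 08 leg libraries. With no low-count filter 16577 genes were tested in place of 8568, so the counts are out of a larger number. They were 1441 against all other species, 2065 against chlorocyanus, 1456 against cybotes and 1300 against osa. With the 9 other libraries as 1 group 76 genes were called, and the fit of 24 libraries gave 957 against osa. Leaving out 1 leg library gave 352 to 1023 calls against all other species, 795 to 1433 against chlorocyanus, 307 to 1183 against cybotes and 299 to 942 against osa. The 4 named genes kept their direction and call in all 22 other settings, with edgeR adjusted p up to 0.0368. Their choice from these same libraries, by large fitted fold and complete separation, favours that outcome. For leg alone, no paired analysis was possible, because the libraries compared are of different species and a title number pairs muscles only within a species. The leg minus jaw difference gave 0 calls, 1 with no low-count filter, 3 by DESeq2 and 27 with the replicate block. It gave 0 in each of 24 fits without 1 library. With the replicate block and without both libraries of 1 number, an alternative chosen after seeing the data, the count was 24, 21 and 24 without chlorocyanus 04, 06 and 08, 53, 21 and 21 without cybotes 01, 03 and 08, 20, 24 and 21 without osa 04, 05 and 07, and 22, 5 and 14 without sagrei 15, 16 and 17. Of the calls without sagrei 15, 16 and 17, only 12, 5 and 9 were among the 27. The causes were not tested. Depth limits statements on genes near the floor of 3 counts over the sagrei group.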
